A study of Homo sapiens with 52 samples.

Results

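SUM159PT cells that expressed the hairpin shNRP1#3 were compared with SUM159PT cells that expressed a non-targeting hairpin (shNT). The comparison was taken from the sample labels and held 3 samples of each group, which are 6 of the 52 samples of the series. SUM159PT is an established triple-negative human breast cancer cell line of the claudin-low type, in which tight-junction claudins and E-cadherin are scarce and mesenchymal genes are active. The study depleted NRP1 in SUM159PT, MDA-MB-231 and HS578T cells with paired siRNA and shRNA reagents and profiled poly(A) RNA by stranded sequencing, with the question of which transcripts change when NRP1 is reduced.

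Both groups carried a hairpin in the lentiviral vector pLKO.1, both were selected with 1 µg/mL puromycin for 3 days, and RNA was collected 48 hrs after seeding. Neither group was left without virus or without puromycin, so the comparison shows the targeting hairpin against a non-targeting one and not against untouched cells. Replicates 1 to 3 were consecutive passages of the transduced cells, so the spread within each of the groups is that between passages. Gene-level p-values rest on a spread pooled over all 17 SUM159PT samples, the siRNA samples included. Whether the transduced cells were a pool or a clone is not given in the sources used here. In bulk RNA, fewer cells with a transcript and less of it per cell cannot be told apart.

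NRP1 encodes neuropilin-1, a single-pass membrane co-receptor that binds class 3 semaphorins and vascular endothelial growth factors and presents them to plexins and receptor tyrosine kinases. It is best known from axon guidance and blood vessel growth, and in carcinoma cells it has been linked to growth factor and integrin signalling. Shorter transcripts that end before the transmembrane segment encode secreted, soluble neuropilin-1, which can bind ligand away from the cell. A short hairpin is cut in the cell to a small duplex, of which the guide strand directs Argonaute proteins to matching RNA. Full matches lead to cleavage, while partial matches in 3′ untranslated regions (3′ UTRs) can lower an RNA as a microRNA does, mostly through the bases near the guide's 5′ end that are called the seed.

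The 21 bases that shNRP1#3 matches lie at chr10:33185659-33185679 on the minus strand of GRCh38, within NRP1 (ENSG00000099250.18, chr10:33177492-33336262). They fall in exon 15 of NRP1-206, in its coding sequence, at positions 2665 to 2685 of that transcript. Of the 14 annotated NRP1 transcripts 4 hold the whole site, and these are the transmembrane transcripts NRP1-201, NRP1-206, NRP1-207 and NRP1-208. The site of the other NRP1 hairpin, shNRP1#5, lies at chr10:33263779-33263797 in exon 4, at positions 792 to 810 of NRP1-206, and is present in 9 of the 14 transcripts, soluble ones included. Both sites are shown in the direction of transcription, with the bases that the hairpin matches in capitals, because they fix which transcripts each hairpin can pair with in full.
shNRP1#3 site: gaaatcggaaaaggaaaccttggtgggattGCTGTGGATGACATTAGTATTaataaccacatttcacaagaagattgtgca
shNRP1#5 site: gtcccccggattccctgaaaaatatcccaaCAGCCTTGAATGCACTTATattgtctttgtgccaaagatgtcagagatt

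Expected counts added up to between 33144200 and 62014725 per sample, and the 10 most abundant genes took 7.01 to 8.52% of them. Genes at 0.5 CPM or less in the SUM159PT controls that MDA-MB-231 controls expressed (29 genes) sat at a median of 0.04 to 0.386% of their MDA-MB-231 level in the 6 samples, and 39 such genes of HS578T at 0 to 0.0504%. Of the markers by which the cell type was checked, VIM (4920 to 8150 CPM), CD44 (777 to 1030), ITGA6 (139 to 177), ZEB1 (11.6 to 29.4) and SNAI1 (13.0 to 36.9) were expressed in all 6 samples. CLDN3, CLDN7, CDH1, EPCAM, ESR1 and PGR stayed at 0.423 CPM or less and CLDN4 at 1.79 or less. ERBB2, which was listed as a low marker, was at 77.3 to 119 CPM and goes against that entry of the list. CLDN3, ESR1 and PGR had too few counts to be tested between the groups, and none of the other markers passed.

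NRP1 RNA was lower with shNRP1#3. CPM (counts scaled to the sample's total after TMM normalisation) of NRP1 were 129, 82.0 and 75.6 in shNRP1#3 replicates 1 to 3, and 272, 237 and 203 in shNT replicates 1 to 3. All 3 shNRP1#3 samples lay below all 3 shNT samples, and shNRP1#3 replicate 1 kept the most NRP1 of the 3. The log2 fold change was -1.31 (SE 0.30, a 2.48-fold fall, adjusted p = 0.0342, edgeR's quasi-likelihood test, Benjamini-Hochberg adjusted over all genes), and within replicate numbers the log2 differences were -1.08, -1.53 and -1.42. With replicate numbers as a block it was -1.34 (adjusted p = 0.000826). Leaving out any one of the other 5 samples raised the adjusted p to between 0.0507 and 0.15, while without shNRP1#3 replicate 1 it was -1.60 with adjusted p = 0.0475. NRP1 with shNRP1#5 stood at 48.1 ± 5.76 CPM (SD, n = 3), so that shNRP1#3 left more NRP1 than shNRP1#5 (log2 difference 0.99, adjusted p = 0.0461).

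At the transcript level, those that hold the site had lower values in all 3 shNRP1#3 samples. Their summed level was 28.59, 13.88 and 15.61 TPM (a scaled abundance that takes transcript length into account) with shNRP1#3 and 51.27, 47.23 and 41.78 TPM with shNT, without overlap. The mean log2(TPM + 0.1) differed by -1.34 (exact permutation test, two-sided p = 0.1, the smallest that 3 against 3 samples allow). The 5 soluble transcripts, which lack the site, summed to 12.18, 9.8 and 8.31 TPM with shNRP1#3 and 17.27, 15.72 and 7.48 TPM with shNT, and the groups overlapped. For these the log2 difference was -0.34 (exact permutation test, p = 0.5). The remaining NRP1 transcripts, counted as neither form, also lack the whole site. They summed to 16.7, 8.66 and 7.35 TPM with shNRP1#3 and 32.88, 20.48 and 18.96 TPM with shNT. These groups did not overlap, and no test was run on this sum. Most of it was NRP1-209 (mean 8.65 TPM with shNRP1#3 and 20.95 TPM with shNT). That 497-base transcript starts just past the site and lies within the span of the transmembrane transcripts. Reads can be divided between them, so a fall of transcripts without the site cannot be told apart here from that of the transmembrane ones. NRP1-204, the main soluble transcript, made up 18.03, 24.08 and 24.1% of NRP1 TPM with shNRP1#3 and 14.58, 15.77 and 8.79% with shNT. Its share was higher in all 3 shNRP1#3 samples, by 9.02 percentage points (exact permutation test, p = 0.1, again the smallest possible).

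**Figure D1:**
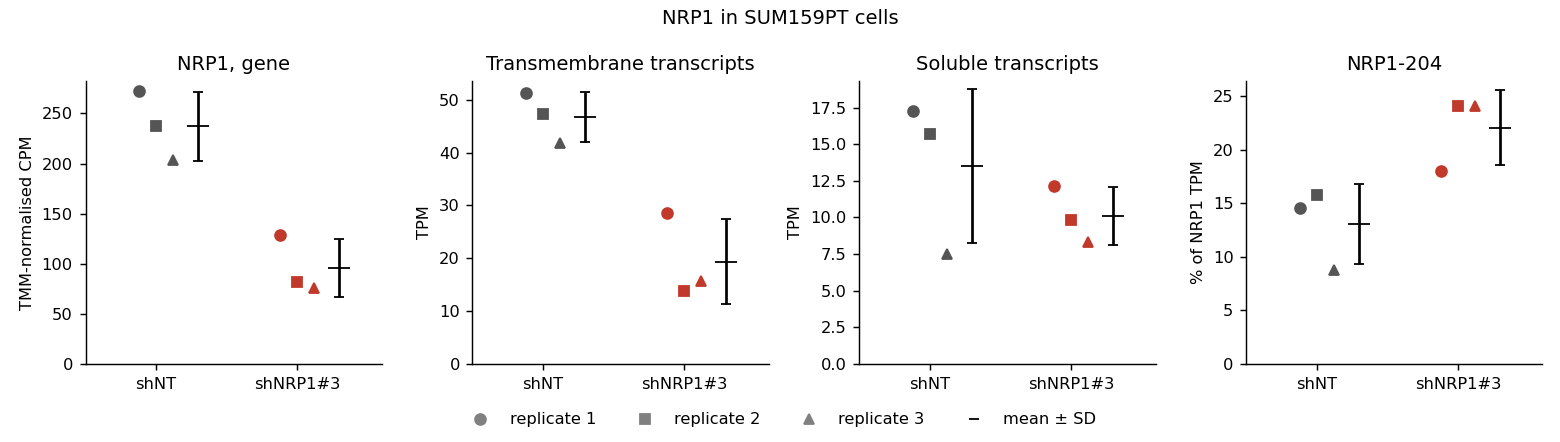
NRP1 in the 3 shNT (grey) and 3 shNRP1#3 (red) samples, as CPM of the gene, TPM of the summed transmembrane and soluble transcripts, and the percent of NRP1 TPM in NRP1-204, with 1 symbol per replicate number and mean ± SD (n = 3) as bars. The gene and the transmembrane sum are lower in all 3 shNRP1#3 samples, the soluble sums overlap, and the NRP1-204 share is higher in all 3.

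Over all genes, shNRP1#3 went with more lower than higher calls. Of 20067 genes tested, 68 were higher (0.339%) and 213 were lower (1.06%) at an adjusted p under 0.05. Of the 281 genes called, 263 were protein-coding and 18 were lncRNAs. The sizes were large, with a median log2 fold change of 2.12 among the higher genes and -1.78 among the lower ones, against 0.03 over all genes tested. The 3 samples of one group lay entirely above or below the 3 of the other for all 281 genes, as they did for 5176 genes tested (25.8%). Many called genes had few reads: 34 of the 68 higher genes averaged under 5 CPM in the shNRP1#3 samples and 81 of the 213 lower genes under 5 CPM in shNT.

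The number of calls depended on how replicate numbers were treated. Same-numbered samples deviated together, most clearly in replicates 2 and 3. When replicate numbers entered as a block, 199 genes were higher (0.992%) and 411 lower (2.05%), among them 66 of the 68 and all of the 213. Leaving out any one of the 6 samples left 13 to 38 higher and 77 to 177 lower genes, and shNT replicate 3 was the one whose omission kept the most lower calls.

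**Figure D2:**
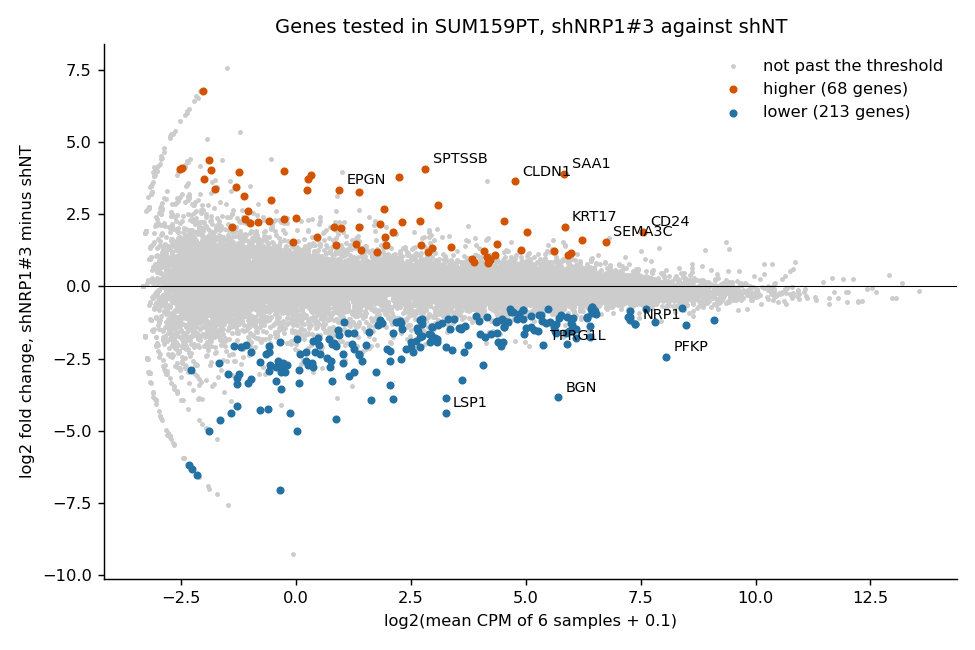
Log2 fold change of shNRP1#3 against shNT (y) over log2 of the mean CPM of the 6 samples plus 0.1 (x) for the 20067 genes tested, with the 68 higher genes in orange and the 213 lower genes in blue. Lower calls run through the whole range of counts, and several of the largest sizes belong to genes with few counts at the left edge.

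Among the higher genes with a symbol and at least 5 CPM (34 genes), the 12 largest changes were in genes of varied roles. SPTSSB, a small subunit of the serine palmitoyltransferase that starts sphingolipid synthesis, had the largest change. It stood at 9.92, 21.4 and 8.0 CPM with shNRP1#3 and 0.391, 1.13 and 0.81 with shNT (log2 fold change 4.07, SE 0.53, adjusted p = 0.00065). CLDN1, a tight-junction claudin, was at 47.7, 69.9 and 33.2 CPM against 3.79, 4.78 and 3.42 (3.65, SE 0.50, adjusted p = 0.00125). Both genes were higher in every shNRP1#3 sample by a wide margin, and CLDN1 belongs to the protein family whose scarcity gives claudin-low cells their name. CLDN1 was not on the list of markers that claudin-low cells lack. Of the 14 genes tested from that list 2 lay above 0 (median log2 fold change -0.56) and none was called. CLDN4 (-0.49) and CLDN7 (-1.07) did not rise with CLDN1. KRT17, a keratin of basal epithelial cells with close paralogues and pseudogenes among which reads can be divided, was at 53.1, 84.8 and 140.0 CPM against 21.1, 16.1 and 29.1 (2.07, SE 0.35, adjusted p = 0.00599). NRCAM, a cell adhesion molecule of the immunoglobulin superfamily that is known from axons, was at 44.8, 43.3 and 25.3 CPM against 8.52, 9.49 and 5.6 (2.27, SE 0.33, adjusted p = 0.00162). All 4 of these genes kept their call under each of the 11 alternatives.

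The calls of the other genes were less stable. SAA1, an acute-phase serum amyloid gene with a near-identical neighbour, SAA2, was at 38.3, 222 and 62.1 CPM with shNRP1#3 and 7.53, 12.2 and 1.77 with shNT (log2 fold change 3.91, SE 0.92, adjusted p = 0.0475). Replicate 2 lay far above the other shNRP1#3 samples, and leaving out any one of the 6 samples ended the call. CD24, a surface sialoglycoprotein that claudin-low cells usually carry at low levels, was at 308, 286 and 296 CPM against 101, 63.1 and 73.8 (1.90, adjusted p = 0.0228). Processed copies of CD24 elsewhere in the genome can take or give reads, and its call too ended without any one of the samples. TREM2, a lipid receptor of macrophages and microglia, was at 2.66, 17.2 and 6.2 CPM against 0.432, 0.967 and 0.479 (3.79, adjusted p = 0.011). Its replicate 2 also stood highest, and the adjusted p was 0.0546 without that sample, 0.0735 without shNT replicate 1 and 0.0532 without shNT replicate 3. The remaining genes of the 12 were CLCA2, a regulator of calcium-activated chloride current (2.83), NCKAP5 (2.67), FCRLA, an Fc receptor-like protein of B cells (2.28), MYOZ2, a protein of the muscle Z-disc (2.23), and TMEM40 (2.17), with adjusted p between 0.00771 and 0.0189. Their samples were closer together, and of the 11 alternatives TMEM40 kept its call under 10, CLCA2, NCKAP5 and FCRLA under 8 and MYOZ2 under 6.

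Among the lower genes with a symbol and at least 5 CPM in shNT (131 genes), PFKP had the most reads of the 12 largest changes. PFKP encodes the platelet isoform of phosphofructokinase, which commits glucose to glycolysis. It was at 90.0, 67.1 and 91.6 CPM with shNRP1#3 and 459, 368 and 515 with shNT (log2 fold change -2.43, SE 0.25, adjusted p = 0.000109). The groups were far apart and the log2 differences within replicate numbers were -2.35, -2.45 and -2.49. None of 18 other genes of glycolysis and the hypoxia response passed, with LDHA, which makes lactate, at -0.38 (adjusted p = 0.611) and PFKFB3, which makes an activator of phosphofructokinase, at -0.41 (adjusted p = 0.447).

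The remaining 11 genes had varied roles. SYNGR1, a synaptogyrin of synaptic-like vesicles, was at 0.743, 0.369 and 0.445 CPM against 7.43, 9.51 and 6.76 (-3.89, SE 0.41, adjusted p = 0.000109). KIF21B, a kinesin motor, was at 0.511, 0.255 and 0.306 CPM against 7.24, 6.81 and 2.94 (-3.93, SE 0.62, adjusted p = 0.00333). LSP1, an actin-binding protein of leukocytes, was at 0.155, 1.76 and 0.806 CPM against 9.16, 38.1 and 6.99 (-4.37, SE 0.91, adjusted p = 0.0226). For all 3 genes no shNRP1#3 sample reached the lowest shNT sample, and shNT replicate 2 set much of the spread of LSP1. CYP2S1, a cytochrome P450 of epithelia, was at 1.52, 1.25 and 0.917 CPM against 19.6, 25.2 and 8.56 (-3.84, SE 0.40, adjusted p = 0.000109). ETNK2, an ethanolamine kinase of phospholipid synthesis, was at 0.588, 0.766 and 0.75 CPM against 6.93, 9.29 and 5.83 (-3.40, SE 0.31, adjusted p = 8.65e-05). MYRF, a membrane-bound transcription factor known from myelin, was at 1.79, 2.27 and 2.95 CPM against 20.9, 29.4 and 15.4 (-3.23, SE 0.45, adjusted p = 0.0012). Of these 6 genes LSP1 alone lost its call under any alternative.

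Of the 12 genes, 2 encode proteins of the extracellular matrix. BGN, the proteoglycan biglycan, was at 0.99, 8.46 and 11.1 CPM with shNRP1#3 and 26.1, 133 and 133 with shNT (log2 fold change -3.84, SE 0.84, adjusted p = 0.0311). Replicate 1 was the lowest of its group in both groups, which is the kind of shared deviation seen between same-numbered samples, and 6 of 11 alternatives ended the call. NID1, the basement membrane protein nidogen-1, was at 0.743, 0.738 and 0.723 CPM against 3.87, 8.28 and 5.24 (-2.97, SE 0.44, adjusted p = 0.0017). The last 3 genes were TNNT1, slow skeletal muscle troponin T (-2.72, adjusted p = 0.000772), SEPTIN3, a septin GTPase (-2.58, adjusted p = 0.0164), and PALD1, the phosphatase-domain protein paladin (-2.5, adjusted p = 0.0134). TNNT1 kept its call under all 11 alternatives, PALD1 under 8 and SEPTIN3 under 7.

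**Figure D3:**
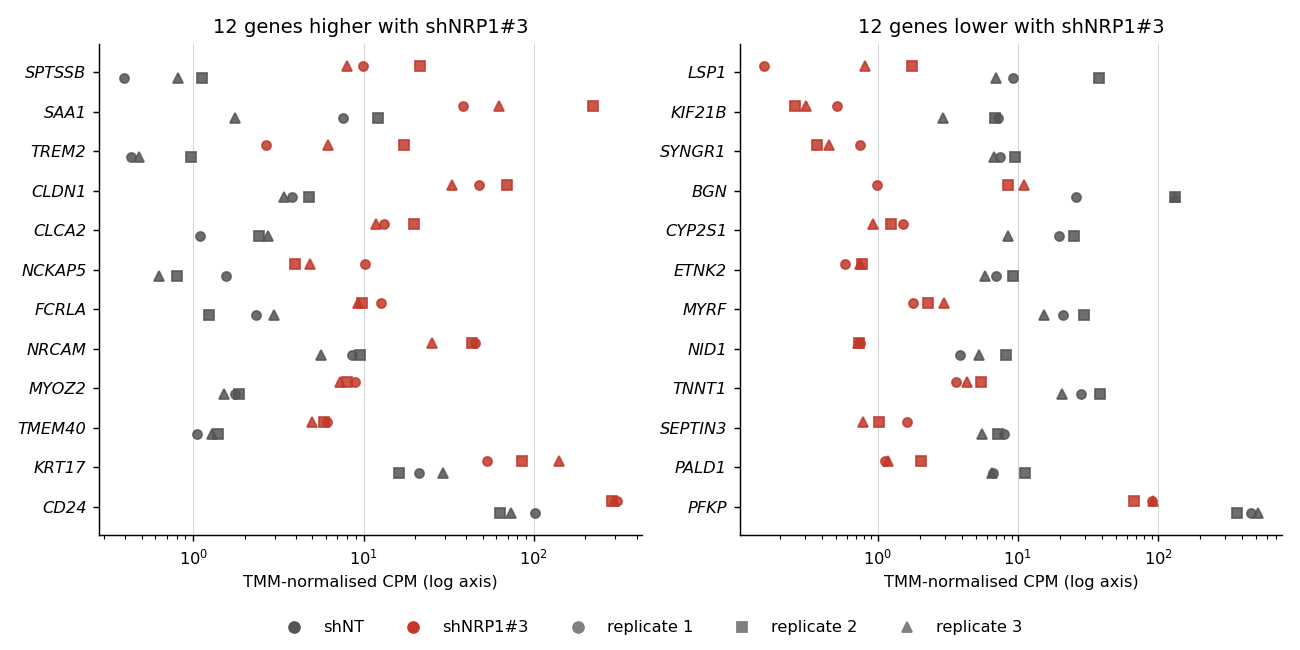
TMM-normalised CPM (log axis) of the 12 genes with the largest increase and the 12 with the largest decrease among genes with at least 5 CPM in the higher group, with shNT in grey, shNRP1#3 in red and 1 symbol per replicate number. The 3 red and 3 grey symbols of each gene do not overlap, and the spread within a group is widest for SAA1, LSP1 and BGN.

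Among the neuropilins, their semaphorin ligands and plexins, 3 of 24 genes tested passed the threshold. SEMA3C, a secreted class 3 semaphorin that signals through neuropilins and plexin D1, was at 218, 145 and 117 CPM with shNRP1#3 and 54.9, 53.5 and 55.5 with shNT (log2 fold change 1.55, SE 0.31, adjusted p = 0.0164). SEMA3B, another class 3 semaphorin, was at 1.73, 2.07 and 1.81 CPM against 8.21, 11.6 and 5.63 (-2.18, SE 0.33, adjusted p = 0.00194). The SEMA3B call held under all 11 alternatives, while that of SEMA3C was lost without shNRP1#3 replicate 1 (adjusted p = 0.118) or without any one of the shNT samples (adjusted p = 0.0533 to 0.083). So 1 ligand was higher and another lower, each without overlap, and NRP1 itself was the remaining call. SEMA3A, the prototype ligand of NRP1 in axon repulsion, had a log2 fold change of 1.44 that passed only with the replicate block (adjusted p = 0.0903 without and 0.0276 with it). NRP2, the paralogue of NRP1, was at 11.8, 6.24 and 11.3 CPM against 21.9, 17.9 and 23.8, a log2 fold change of -1.11 with adjusted p = 0.159 that became 0.0238 with the block. The NRP2 groups did not overlap in these 6 samples. The plexins gave values on both sides of 0 and no call, for example PLXND1 with -1.45 (adjusted p = 0.176) and PLXNA1 with -0.41 (adjusted p = 0.545).

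The other gene lists held few calls, to be read against the 0.339% higher and 1.06% lower among all genes. In the EGF family ligands, EPGN (epigen) was higher, at 3.53, 1.79 and 4.61 CPM against 0.37, 0.201 and 0.397 (log2 fold change 3.34, adjusted p = 0.00499), and it was the 1 call among 9 ligands. AREG, EREG and HBEGF had log2 fold changes of 1.27, 0.93 and 0.56 with overlapping samples and no call. USP18, the protease that removes ISG15, was lower (-1.81, adjusted p = 0.0323) and was the 1 call among 25 interferon-stimulated genes, whose median was -0.25. This call was lost without any one of the 6 samples (adjusted p = 0.051 to 0.152). ALDH1A3, a retinal dehydrogenase, was lower (-1.67, adjusted p = 0.017) as the 1 call among 15 markers that claudin-low cells express (median -0.21). It was lost without shNRP1#3 replicate 1 or 2 or shNT replicate 3 (adjusted p = 0.0863 to 0.0896). MDM2, the ubiquitin ligase of p53, was higher (0.93, adjusted p = 0.0451) as the 1 call among 18 p53 targets and CDK inhibitors (median 0.37), and CDKN1A had 0.25 with overlapping samples. MDM2 passed under 4 of the 11 alternatives and was lost when low counts were not filtered out (adjusted p = 0.0628), with only the groups compared (0.0501) and in 5 of 6 fits without 1 sample (up to 0.218).

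In 18 lists no gene passed. Inflammatory cytokines and chemokines had the highest median of them, 1.05 over 20 genes with 15 above 0. IL6 was at 89.3, 128 and 32.5 CPM with shNRP1#3 and 37.4, 29.1 and 19.9 with shNT, and CXCL8 at 121, 79.5 and 51.0 against 23.7, 10.7 and 61.4. Both overlapped between the groups, with shNRP1#3 replicate 3 lowest each time, and neither passed (adjusted p = 0.396 and 0.546). DNA replication genes had a median of -0.40 with 1 of 20 genes above 0, and mitotic genes -0.30 with 4 of 20. MCM2, a subunit of the replicative helicase, was at 187, 168 and 179 CPM against 284, 264 and 235, without overlap (-0.55, adjusted p = 0.399). Markers that claudin-low cells lack had a median of -0.56 over 14 genes, Notch and Wnt pathway genes -0.34 over 24, RAS-MAPK feedback and output genes -0.19 over 19, and growth factor receptors and ligands linked to NRP1 -0.12 over 24. NRF2 targets had a median of 0.28 over 16 genes, antigen presentation genes 0.23 over 15, collagens and matrix glycoproteins 0.17 over 27, and glycolysis and hypoxia genes 0.11 over 18.

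The RNA interference machinery, whose products process the hairpin, had a median of 0.10 over 13 genes, with AGO2 at -0.19 (adjusted p = 0.831) and DICER1 at 0.40 (adjusted p = 0.609). Cholesterol and fatty acid synthesis (-0.12 over 22 genes), matrix proteases and the plasminogen system (-0.11 over 15), TGF-beta and BMP response genes (-0.01 over 16), integrins and laminin-332 adhesion genes (0.01 over 17), YAP-TEAD and SRF targets (0.01 over 21) and the unfolded protein and ATF4 response (0.03 over 20) lay near the median of all genes, 0.03. With the replicate block the neuropilin, semaphorin and plexin list held 2 higher and 3 lower calls, and no other list held more than 3 calls.

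Many of the lower genes held a short stretch of the hairpin's target sequence in their 3′ UTR. Each stretch of 7 bases of both hairpin sites, read on both strands (56 windows in all), was searched in the 3′ UTR of 1 canonical transcript per gene, which 14300 of the genes tested had. This search was added after the gene values had been seen. The window at bases 10 to 16 of the shNRP1#3 site, counted from its 5′ end, reads GACATTA. It occurred in 68 of the 205 lower genes that have a 3′ UTR (33.2%, 95% Wilson interval 27.1 to 39.9), in 6 of 57 higher genes (10.5%) and in 1335 of all 14300 genes (9.34%). The Wilson interval does not allow for the choice of this window among the 56, made on these same genes, or for related genes. The share in lower genes was 3.55 times that in all genes. For the other 55 windows this ratio ran from 0.459 to 1.55, and the highest of these belonged to the neighbouring window TGACATT, which shares 6 bases with it. Where GACATTA was absent, the neighbouring window was found in 11.7% of lower genes and 14.0% of all genes.

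Counted on the guide strand as the reverse complement of the site, GACATTA pairs with guide bases 6 to 12. The window that pairs with bases 2 to 8, where a seed is usually placed, reads TTAGTAT. It occurred in 10.2% of the lower genes and 12.7% of all genes, and genes that hold it once had a median log2 fold change of 0.10 against -0.04 for genes without it. The 5′ end of the guide made in these cells was not measured, so guide positions here count from the end of the published sequence. In the transcript before the 3′ UTR, GACATTA occurred in 6.34% of lower genes and 7.92% of all genes.

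The 8 examples are shown because they were lower in both SUM159PT and MDA-MB-231, had at least 20 CPM and carried the largest SUM159PT decreases of 39 such genes, a choice made after their values were seen. Each line gives 27 bases of the 3′ UTR in the direction of transcription (GRCh38), with GACATTA in capitals.
PFKP, chr10:3136663-3136689, plus strand: acgtattattGACATTAatacctaatc
TPRG1L, chr1:3630051-3630077, plus strand: tgttcataaaGACATTAagaagtggat
PAFAH1B2, chr11:117168472-117168498, plus strand: ggttcttgttGACATTAcaagctttta
SNAPIN, chr1:153661392-153661418, plus strand: tagaccttcaGACATTAaaaagggagc
GALNT7, chr4:173322821-173322847, plus strand: tcatccaaatGACATTAtctgcacgtt
DCTPP1, chr16:30423754-30423780, minus strand: caagctaaatGACATTActcaaattaa
KIAA1191, chr5:176346501-176346527, minus strand: taggtaaatgGACATTAaactttttta
SGPL1, chr10:70879013-70879039, plus strand: ctgctcttatGACATTAtatcttgtgc
Beyond the window these stretches differ from one another, and the longest run around it that equals the NRP1 site was 7 to 9 bases.

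These genes have unrelated roles. TPRG1L, a presynaptic vesicle protein, was at 15.8, 17.1 and 15.7 CPM with shNRP1#3 and 66.9, 69.3 and 62.4 with shNT (log2 fold change -2.03, SE 0.20, adjusted p = 0.000109). PAFAH1B2, a catalytic subunit of a platelet-activating factor acetylhydrolase with 3 copies of the window in its 3′ UTR, was at 25.0, 20.5 and 25.5 CPM against 86.8, 79.4 and 118 (-2.0, adjusted p = 0.00024). SNAPIN, which takes part in SNARE and lysosome transport complexes, was at 7.01, 11.6 and 9.67 CPM against 39.3, 34.1 and 34.8 (-1.94, adjusted p = 0.000259). The samples within each group lay close together for these genes, and the groups were well apart. DCTPP1, which hydrolyses dCTP, had a log2 fold change of -1.80, KIAA1191 of -1.76 and SGPL1, the lyase that ends sphingosine-1-phosphate, of -1.66, with adjusted p between 0.00024 and 0.00458. GALNT7, an enzyme of O-glycosylation, had -1.92 (adjusted p = 0.0101). In SUM159PT, SGPL1 was also called lower with siNRP1#3 (-0.97, adjusted p = 0.00407) and siNRP1#5 (-1.73, adjusted p = 0.000229), whose target sequences lack the window. DCTPP1 was called higher with siNRP1#5 (1.46, adjusted p = 0.00587). Of the 12 genes with the largest decreases, SEPTIN3 and PFKP hold the window and the other 10 do not.

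The window was found mostly in lower genes with many reads. Among lower genes at 50 CPM or more in shNT, 31 of 50 held it (62.0%), against 7.14% of all genes in that range. Among those at 5 to 50 CPM it was 37.7% against 11%, and below 5 CPM 10.3% against 8.98%. Longer 3′ UTRs hold any window more often, so the genes with at least 1 CPM were also split by length. In the shortest of 3 classes (up to 759 bases), 23.9% of genes with the window were called lower and 0.752% of those without. In the middle class these shares were 6.34 and 1.51%, and in the longest class 3.92 and 0.903%. Most genes that hold the window were not called. Their median log2 fold change was -0.08 with 1 copy and -0.10 with 2 or more, against -0.02 without, and 5.65, 5.33 and 1.06% were called lower.

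The window was picked on the SUM159PT values, and the same count was made in other samples. In MDA-MB-231 cells with the same hairpin, 9.38% of genes with 1 copy and 10.5% with 2 or more were called lower, against 1.84% without. In HS578T cells with shNRP1#3 (2 samples), 5 genes with 1 copy (0.499%) and 0 of 148 with 2 or more were called lower, against 1 gene without it (0.00922%). The HS578T medians were 0.004 with 1 copy, 0.097 with 2 or more and 0.009 without. In SUM159PT with shNRP1#5, which shares the shNT samples, the shares were 3.89% with 1 copy and 3.94% without, and with siNRP1#3, whose target site is another one, 7.3 and 7.49%. With siNRP1#5 (replicates 2 and 3 only) they were 13.9% with 1 copy, 16.7% with 2 or more and 11% without. No test was run on these shares. Of the 68 lower genes with the window, PIGY and PYURF had identical values, GTPBP6 is listed at 2 loci, and POM121 and POM121C are paralogues, so the 68 are not independent of each other.

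**Figure D4:**
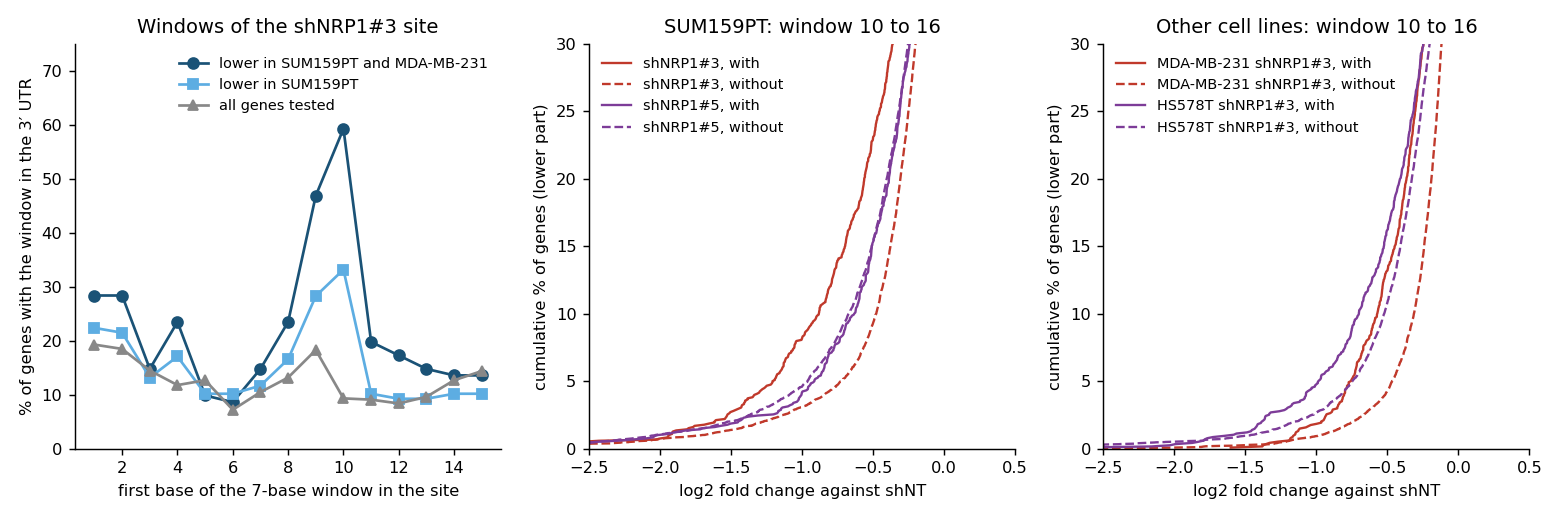
Left, percent of genes whose 3′ UTR holds each 7-base window of the shNRP1#3 site (y) by the window's first base (x), for genes lower in SUM159PT and MDA-MB-231, genes lower in SUM159PT and all genes tested. Middle and right, the lower part of the cumulative distribution of log2 fold changes for genes with (solid) and without (dashed) the window at bases 10 to 16 (minimum 1 CPM). The window starting at base 10 is the highest point for the genes lower in SUM159PT, at 33.2%.

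The same hairpin was compared with its own shNT in both other lines. In MDA-MB-231, a triple-negative line of the same type, 275 genes were higher (1.46%) and 411 lower (2.19%). Of the 213 genes lower in SUM159PT, 188 were tested there, 164 had a negative log2 fold change and 82 were called lower. TNS1, a focal adhesion protein, was the 1 gene of the 213 called higher (0.85, adjusted p = 0.0167), against -2.06 in SUM159PT. Split by the window, all 66 genes with it that were tested had a negative value and 48 were called (72.7%). Of the 118 without it, 96 had a negative value and 33 were called (28.0%). Read level was not matched in this split. Of the SUM159PT lower genes, 62.0% held the window at 50 CPM or more in shNT and 10.3% under 5 CPM. Of the 68 higher genes 47 were tested, 36 had a positive value and 7 were called higher, among them NRCAM (0.83) and HSD17B10, a mitochondrial dehydrogenase (1.25, against 1.16 in SUM159PT), while TREM2 was called lower (-4.11).

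In HS578T with 2 shNRP1#3 samples the same test gave 1 higher gene (0.00509%) and 6 lower ones (0.0305%). Of the 198 lower genes tested there, 181 had a negative value, with a median of -0.78. The 5 that were called, TPRG1L, PFKP, SNAPIN, KIAA1191 and DPF2, all hold the window in their 3′ UTR. Their log2 fold changes in HS578T ran from -2.16 (PFKP) to -1.32 (KIAA1191). Of the 68 higher genes 53 were tested, 37 had a positive value and none was called. NRP1 had log2 fold changes of -1.48 in MDA-MB-231 (adjusted p = 1.83e-05) and -1.59 in HS578T (adjusted p = 0.069), beside -1.31 in SUM159PT.

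A direct test of the difference in log2 fold change between SUM159PT and MDA-MB-231, over 23416 genes, called 192 (0.82%). These held 50 of the 213 lower genes and 11 of the 68 higher genes, among them CLDN1 and TREM2. For HS578T 24 genes were called (0.102%), of which 12 were among the lower genes and 2, PLCH2 and JPH2, among the higher ones. Of the 68 lower genes with the window 5 differed from MDA-MB-231, and of the 137 without it 43 did. Genes with and without the window also differed in read level, which was not matched.

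**Figure D5:**
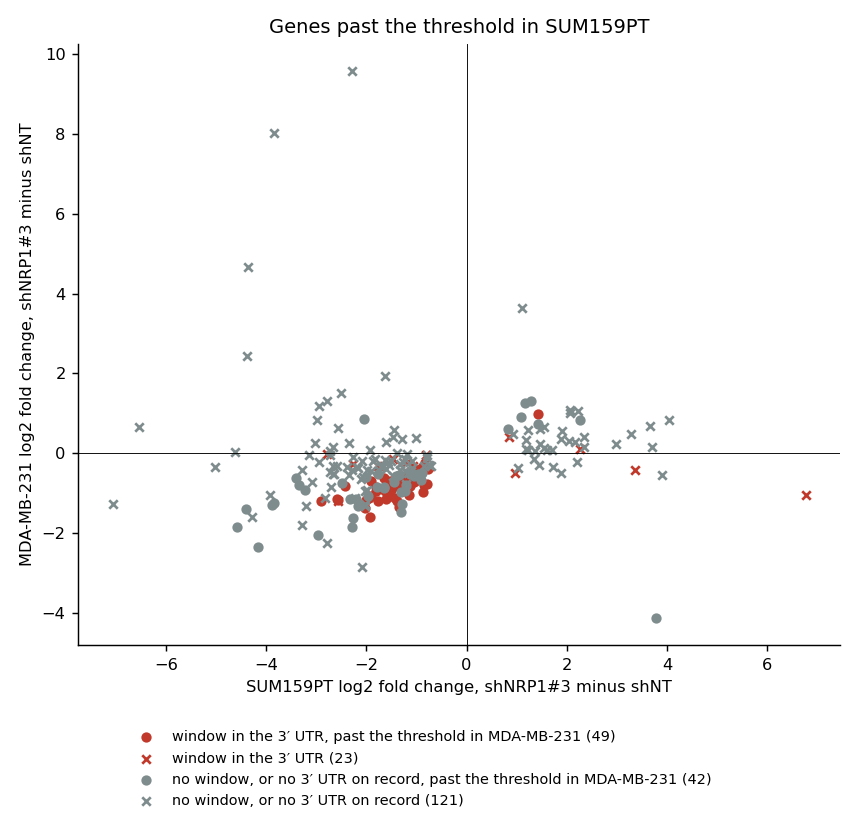
Log2 fold change after shNRP1#3 in MDA-MB-231 (y) against that in SUM159PT (x) for the genes called in SUM159PT and tested in both lines, in red where the 3′ UTR holds the window at bases 10 to 16, and as a filled circle where the gene also passed the threshold in MDA-MB-231. The lower genes with the window lie below 0 in both lines, while those without it lie mostly below 0 in MDA-MB-231, with some above.

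Within SUM159PT, the change after shNRP1#3 was set beside those after other NRP1 reagents. A direct test of shNRP1#3 against shNRP1#5 samples called 1747 genes (8.71%). Of the 213 lower genes 148 were lower and 6 higher with shNRP1#3 than with shNRP1#5, and of the 68 higher genes 30 were higher and 2, JPH2 and COLGALT2, lower. PFKP was at 355 ± 147 CPM with shNRP1#5 (log2 difference -2.10, adjusted p = 7.9e-05), and SPTSSB at 0.976 ± 0.419 (3.74, adjusted p = 0.000238). BGN was at 631 ± 265 CPM with shNRP1#5, far above its shNRP1#3 samples (-6.53, adjusted p = 0.000492). CLDN1 stood at 26.4 ± 9.23 CPM with shNRP1#5, with a log2 fold change against shNT of 2.73 (adjusted p = 0.0031) beside 3.65 for shNRP1#3, and the direct difference of 0.93 did not pass (adjusted p = 0.259). Of the named genes, KRT17, MYOZ2, MDM2, TNNT1, ALDH1A3, KIAA1191 and SEPTIN3 likewise passed against shNT with either hairpin (shNRP1#5 log2 fold changes of 1.44, 1.78, 0.94, -1.81, -1.71, -1.45 and -3.43) and not in the direct test. Both comparisons use the same shNT samples, so their values are given side by side only. The called genes were found with the same shNRP1#3 samples that enter the direct test, so its counts among them are no independent support.

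siNRP1#3, an siRNA to the same NRP1 exon that was given at 20 nM for 72 hrs and compared with its own siNT, gave an NRP1 log2 fold change of -2.09 (adjusted p = 0.000687). Against siNT, 634 genes were higher (3.16%) and 1103 lower (5.5%). Of the 213 genes lower with shNRP1#3, 112 had a negative value with siNRP1#3, 21 were called lower and 16 higher, with a median of -0.05. Of the 68 higher genes 43 had a positive value, 13 were called higher and 6 lower. The test of the difference between both changes called 805 genes (4.01%), 117 of them among the lower and 28 among the higher genes. PFKP had 0.40 with siNRP1#3 against -2.43 with shNRP1#3 (adjusted p of the difference 0.000476). NRP1 itself was not called different (0.78, adjusted p = 0.324). Of the named higher genes, MDM2 (-1.63), CLCA2 (-2.29) and TREM2 (-3.15) were called lower with siNRP1#3 (adjusted p = 0.000459 to 0.0141). NCKAP5 was called higher (1.75, adjusted p = 0.0384). With siNRP1#5 against siNT, MDM2 (-1.8), CLCA2 (-4.05), TREM2 (-5.3), NRCAM (-2.58), SEMA3C (-1.86), FCRLA (-3.48), TMEM40 (-2.0) and EPGN (-2.44) were called lower. MYOZ2 (1.63) was called higher. The siNRP1#5 group held replicates 2 and 3 only. Calls were common in that comparison: of genes with at least 1 CPM and no GACATTA window, 11% were called lower and 12.3% higher. The siRNA and hairpin samples also differ in delivery, selection and time, which cannot be told apart here from the reagent.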

How the data were processed

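Reads were trimmed with Trim Galore 0.6.5 and aligned with STAR 2.7.2b by the authors, and RSEM 1.3.3 gave the values (versions as in the submitters' processing notes). The authors deposited expected counts per gene, not scaled for library size, which were rounded here. They also deposited TPM per transcript and the percent of its gene's TPM that each transcript holds. In R 4.3.3, edgeR 4.0.16 (filterByExpr, TMM, robust quasi-likelihood test) fitted 6 group means over all 17 SUM159PT samples, and 18 group means over the 52 samples for differences between lines. The threshold was a Benjamini-Hochberg adjusted p of 0.05. The alternatives, DESeq2 1.42.0 among them, are given in the closing section. On simulated counts with 200 of 20067 genes changed by 1.5 on the log2 scale, 139 of the changed genes were called. In the same simulated comparison 7 unchanged genes were called falsely. A separate simulated comparison, in which no gene was changed, gave 0 calls. The changed genes were drawn only from genes above a floor of average log CPM, and the simulated calls were not split by read level. They therefore do not show how often genes with few counts are called. Simulated counts were drawn independently for each sample, without deviations shared by same-numbered samples.

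Same-numbered shNRP1#3 and shNT samples deviated together, weakly for replicate 1. Over 20067 genes, their deviations from the group means correlated at 0.123, 0.428 and 0.43 for replicates 1, 2 and 3. Between samples of unlike number the values were -0.43 to 0.0618. Whether same-numbered samples were handled together is not given in the sources used here. No sample was a copy of another (chi-square per degree of freedom 42.5 or more). Named genes are NRP1, NRP2, the 12 largest changes in each direction among called genes with a symbol, no overlap and a mean of at least 5 CPM in the higher group, and up to 5 called genes of each of 23 lists. The genes with printed 3′ UTR sites were added after their values were seen. The members and lists were chosen with earlier results of these data known. Target sites and 3′ UTRs come from GRCh38 with GENCODE 44, an earlier release than the authors used.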

Additional observations from a re-analysis of the deposited data

Results flagged for a closer look

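Several named genes changed differently after the same hairpin in another cell line, by the test of the difference in log2 fold change in the model over all 52 samples (edgeR's quasi-likelihood test, Benjamini-Hochberg adjustment over 23416 genes). Positive differences mean a higher log2 fold change in SUM159PT. Against MDA-MB-231, TREM2 differed by 7.85 (adjusted p = 2.94e-05), being higher in SUM159PT and lower in MDA-MB-231, and CLDN1 by 2.96 (adjusted p = 0.00876). BGN differed by -11.88 (adjusted p = 0.0011), where its own MDA-MB-231 log2 fold change of 8.02 did not pass (adjusted p = 0.0852). NID1 differed by -6.16 (adjusted p = 0.0116) and PALD1 by -4.03 (adjusted p = 0.0211). Within SUM159PT, TREM2 was higher with shNRP1#3 only, by the same kind of test over the SUM159PT samples. Its log2 fold change was -2.82 with shNRP1#5 against shNT (adjusted p = 0.0536). Against siNT it was -3.15 with siNRP1#3 (adjusted p = 0.012) and -5.3 with siNRP1#5 (adjusted p = 0.003).

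Smaller differences from MDA-MB-231 were found for KIF21B (-2.88, adjusted p = 0.025), ETNK2 (-2.78, adjusted p = 0.000625), CYP2S1 (-2.6, adjusted p = 0.000869), SYNGR1 (-2.57, adjusted p = 0.0103), MYRF (-2.32, adjusted p = 0.0418) and TNNT1 (-2.26, adjusted p = 0.00303). PFKP (-1.62, adjusted p = 0.00278) and SGPL1 (-1.06, adjusted p = 0.0156) hold the GACATTA window in their 3′ UTR and fell in both lines, more in SUM159PT. SGPL1 was also called lower in SUM159PT with siNRP1#3 and siNRP1#5, whose target sequences lack the window. Against HS578T, where shNRP1#3 had 2 samples, KIF21B differed by -4.12 (adjusted p = 0.00793), SYNGR1 by -3.24 (adjusted p = 0.00793) and TNNT1 by -2.28 (adjusted p = 0.0231). Groups of 3 samples are too small for the check for single outlying samples, which was therefore not made.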

How the results depend on the processing

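No value changed direction in any alternative. Of the checks of the 38 named genes other than NRP1, 346 kept their side of the threshold, 70 lost the call and 2, both of NRP2, gained it. NRP1 lost its call in 5 of 6 fits without 1 sample. Higher and lower calls numbered 323 and 508 without the filter on low counts, 271 and 469 with DESeq2, 162 and 326 with only the groups compared, and 13 to 38 and 77 to 177 when 1 sample was left out. Genes that differed from siNRP1#3 numbered 1554 (no filter), 1572 (DESeq2) and 370 to 566 (1 sample left out), those that differed from MDA-MB-231 556 (no filter), 315 (DESeq2) and 143 to 166, those that differed from HS578T 230 (no filter), 63 (DESeq2) and 4 to 18, and those between hairpins 929 to 1713 (1 sample left out). Leaving out a sample moved the NRP1 log2 fold change between -1.60 and -1.17. A group then has 2 samples, and its spread is pooled with the other groups. The causes were not tested.

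The replicate block groups samples of the same number, within the hairpin samples and within the siRNA samples of a line. With it 199 genes were higher and 411 lower, 1669 differed from siNRP1#3, 349 from MDA-MB-231 and 108 from HS578T. The block made NRP2 pass and ended no call of a named gene. For the NRP1 transcripts the block gives no p under 0.25. The share of lower genes with the GACATTA window, a count added after the data were seen, was 21.9% without the filter, 26.7% with DESeq2 and 26.8% without shNT replicate 3, and otherwise 27.9 to 39.8%.

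Low counts limit the size of many changes: 34 higher and 81 lower genes averaged under 5 CPM in the group where they were higher. Counting intervals cover counting error only.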

Other observations

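Further lower genes with the GACATTA window and many reads, chosen after their values were seen, act in unrelated processes. OSMR, the receptor of oncostatin M, had a log2 fold change of -1.16 in SUM159PT and -1.04 in MDA-MB-231 (adjusted p = 0.000973 there). SMC1A, a core subunit of cohesin, had -1.30 and -0.81, LBR, which anchors chromatin to the inner nuclear membrane, had -1.54 and -1.0, and KPNA1, an importin of nuclear transport, had -1.49 and -0.75. RNASEH2A, the catalytic subunit of ribonuclease H2, had -1.53 and -0.69 with 1 copy of the window in a 3′ UTR of 174 bases. All 5 passed the threshold in both lines.

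Genes with the window were also shifted in comparisons whose reagent does not hold it, in either direction. In SUM159PT with siNRP1#5 their median log2 fold change was -0.096 with 1 copy and -0.099 with 2 or more, against 0.078 without. There 8.37, 6.67 and 12.3% were called higher. In MDA-MB-231 with shNRP1#5 the medians lay close together (-0.02, 0.004 and -0.012). In HS578T cells with shNRP1#5 the median log2 fold change of genes with the window was 0.31 with 1 copy and 0.41 with 2 or more, against 0.03 without, and few were called. Genes with the TTAGTAT window, which pairs with guide bases 2 to 8 of shNRP1#3, had medians of 0.18 and 0.25 in HS578T with shNRP1#3, against -0.02 without. These medians were not tested.

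CIITA, the transactivator of MHC class II genes, was at 1.1, 2.13 and 0.695 CPM with shNRP1#3 and 4.44, 9.09 and 2.33 with shNT, and its log2 fold change of -2.02 passed only with the replicate block (adjusted p = 0.0714 without and 0.0069 with it). CD74, the invariant chain, was at 4.64, 10.2 and 13.0 CPM against 21.2, 32.9 and 28.8 and passed in neither fit (adjusted p = 0.194 and 0.115). HLA-DPA1, a chain of an MHC class II molecule, was among the genes called lower without the block (log2 fold change -2.17). Its mean with shNT was 3.75 CPM.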
